A study of Mus musculus with 12 samples.

Results

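MOG-immunized retinas were compared with SHAM retinas, and the libraries were chosen by the group named in their labels, which gave 6 of the 12 libraries of the series, 3 in each group. All mice were wild-type C57BL/6. Female mice had been immunized at 8 weeks of age with the myelin peptide MOG35-55 in complete Freund's adjuvant with Mycobacterium tuberculosis, together with pertussis toxin, which induces experimental autoimmune encephalomyelitis (EAE). Retinas were collected 5 weeks later, at 13 weeks of age. What the SHAM mice received in place of the peptide, and so whether adjuvant and toxin are shared by both groups, is not given in the sources used here. Each experiment used 2 or 3 mice a group and was carried out 3 times, and whether a library pools several mice is not stated. The other 6 libraries came from immunized mice that were also needled. They entered the model only so that all 12 libraries shared 1 estimate of the spread.

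EAE is a model of multiple sclerosis in which T cells reactive to myelin attack the central nervous system, and in mice given MOG peptide the optic nerve is often inflamed. Retinal ganglion cells (RGCs) are the output neurons of the retina. Their axons form the optic nerve and gain myelin only behind the eye, so that an attack on the nerve reaches the retina through injured axons, while the photoreceptors, bipolar, amacrine and horizontal cells send no axon into it. Müller cells, the radial glia of the retina, and microglia, its resident macrophages, respond to the loss or injury of RGCs. Poly-A RNA of whole retinas was sequenced, so a gene's level depends on the number of cells of a type and on the RNA in each, and fewer cells of a type and less RNA per cell cannot be told apart.

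The counts per library lay between 16122738 and 18067710, and 18299 of the 34538 genes with a count passed the filter on low counts. Levels are given as FPKM, fragments per kilobase of gene scaled to the depth of the library, in the order of replicates 1, 2 and 3 of each group. Differences are log2 fold changes of MOG over SHAM (log2FoldChange) from the counts, written with ± their standard error (SE) and the Benjamini-Hochberg adjusted p of edgeR's quasi-likelihood test over all tested genes. A gene with an adjusted p under 0.05 is called a DEG. Where a gene lost its call under any of the 13 alternative settings, among them leaving out each library in turn, the highest adjusted p follows after "up to". These settings included DESeq2 on the 6 libraries beside the edgeR fits, so a value after "up to" can come from either tool. SHAM replicate 2 stood apart from the other 5 libraries, with 54.4% of its counts on genes of at least 5000 exonic bases against 57.4% to 59.1%, and it also held the most counts of 12 scarce lens genes, 238 against 15 to 27. MOG replicate 2 held 136 counts of 7 scarce myelin and oligodendrocyte genes against 18 to 31 in the others. Across 10596 well expressed genes the log2FoldChange rose with exon length (Spearman correlation 0.417, across genes, which are not independent replicates), from a median of -0.13 below 1500 bases to 0.03 at 5000 bases and above. DEGs among these genes were 3 upregulated and 11 down-regulated below 1500 bases, and 43 and 24 at 5000 bases and above. The median exon length was 5227 bases in upregulated DEGs, 3419 in down-regulated DEGs and 3806 over all tested genes.

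Immunized retinas differed from SHAM retinas in 245 DEGs, 1.34% of the genes tested, of which 104 were upregulated (0.568%) and 141 down-regulated (0.771%). The counts of DEGs on each gene list below are to be read beside these shares. The down-regulated genes were largely abundant genes, with a median SHAM level of 11.7 FPKM, and 79 of the 141 (56.0%) stood at 10 FPKM or more. Upregulated genes had a median SHAM level of 2.83 FPKM, below the median of 4.43 FPKM over all tested genes, and 13 of the 104 (12.5%) stood at 10 FPKM or more. Most changes were moderate, since the median size of a change among DEGs was 0.58 on the log2 scale and 45 DEGs passed a size of 1, of which 33 were upregulated and 12 down-regulated. All libraries of MOG lay on one side of all libraries of SHAM in each of the 245 DEGs, and in 16.2% of all genes tested (MOG above SHAM in 7.87%, below it in 8.34%). Exons of 34 upregulated (32.7%) and 38 down-regulated DEGs (27.0%) overlap those of another gene, against 35.6% of all tested genes. Where the partner lies on the opposite strand, as Nudt6 does for Fgf2, Stat5a for Stat3, Hmgxb3 for Csf1r, Col4a2 for Col4a1 and Sphk2 for Dbp, reads of both cannot be told apart unless strand was used, which is not stated. The number of DEGs depended on single libraries. It was 120 or 427 when replicate 1 or 3 of SHAM was left out, and 106 or 91 when replicate 2 or 3 of MOG was left out.

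**Figure D1:**
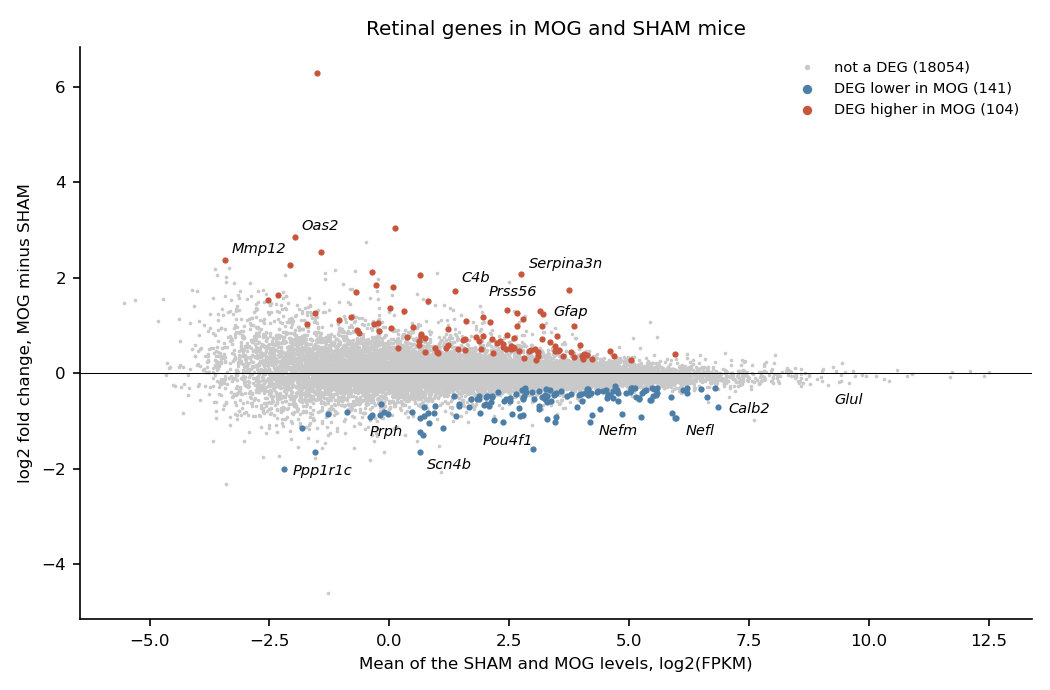
Each of the 18299 tested genes is a point, with its mean level over the SHAM and MOG groups in log2(FPKM) on the horizontal axis and the log2FoldChange of MOG minus SHAM on the vertical axis. The 141 down-regulated DEGs (blue) include abundant neuronal genes such as Nefl and Calb2, whereas most of the 104 upregulated DEGs (red) sit at lower levels. Glul, among the most abundant genes, lies at -0.26 and was not a DEG.

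Some of the transcription factors that define RGCs were lower in immunized retinas. Of 25 tested factors 6 were down-regulated and none was upregulated, with a median log2FoldChange of -0.26 against -0.0023 over all tested genes. Pou4f1 (chromosome 14, 104461676 to 104467999 in GRCm38), the POU-domain factor Brn3a, stood at 7.89, 6.39 and 6.65 in SHAM and 4.33, 2.98 and 2.97 FPKM in MOG (log2FoldChange -1.03 ± 0.16, edgeR adjusted p = 0.00239). Its relative Pou4f2, needed for RGC differentiation, stood at 4.01, 2.73 and 3.58 in SHAM and 2.002, 1.76 and 1.75 FPKM in MOG (log2FoldChange -0.90 ± 0.16, edgeR adjusted p = 0.00297). Isl2, a LIM-homeodomain factor of a subset of RGCs, stood at 3.09, 2.71 and 3.23 in SHAM and 1.602, 1.22 and 1.28 FPKM in MOG (log2FoldChange -1.14 ± 0.17, edgeR adjusted p = 0.00057). In all of these the highest MOG library lay below the lowest SHAM library, as in every down-regulated DEG. Pou4f3, the third member of the Brn3 family (log2FoldChange -0.89 ± 0.20, edgeR adjusted p = 0.0243, up to 0.185), and the Iroquois factors Irx4 (log2FoldChange -0.83 ± 0.18, edgeR adjusted p = 0.0189, up to 0.188) and Irx2 (log2FoldChange -0.88 ± 0.21, edgeR adjusted p = 0.0387, up to 0.256) were lower as well. Tbr1 (-0.66 ± 0.20, edgeR adjusted p = 0.139) and Eomes (-0.43 ± 0.17, edgeR adjusted p = 0.267), factors of restricted RGC types, had negative values without passing the test. Of the 25 values 20 lay below 0 and 5 above it, the highest at 0.69. Sox11 (0.38 ± 0.22) and Klf7 (0.15 ± 0.13), also listed for their part in axon growth, had positive values and were not DEGs either. With replicate 1 of SHAM or replicate 2 or 3 of MOG left out, 3 of the 25 factors remained called, the number that held in every alternative. DESeq2 on the 6 libraries also called 3. Both edgeR on the 6 libraries and the model without SHAM replicate 2 called 4.

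The list of RGC and RGC axon markers changed in larger part, with 19 of its 27 genes down-regulated and none upregulated. Over all tested genes the down-regulated share was 0.771%. Every MOG library lay below every SHAM library in 22 of the 27, the 19 DEGs among them, against 8.34% of all tested genes. The median log2FoldChange was -0.56. Per library, the median of the 27 genes relative to the SHAM mean was 0.09, -0.06 and -0.08 in SHAM and -0.38, -0.64 and -0.67 in MOG, on the log2 scale. Summed over the list, the level was 714 to 808 FPKM in SHAM and 470 to 549 FPKM in MOG, a sum that the most abundant markers dominate. Among the soma markers, Rbpms, an RNA-binding protein used to count RGCs, stood at 5.65, 4.54 and 4.68 in SHAM and 3.46, 3.18 and 2.89 FPKM in MOG (log2FoldChange -0.64 ± 0.13, edgeR adjusted p = 0.0149, up to 0.129). Its relative Rbpms2 stood at 8.999, 8.65 and 8.09 in SHAM and 5.21, 4.31 and 4.28 FPKM in MOG (log2FoldChange -0.90 ± 0.14, edgeR adjusted p = 0.00138). Sncg, gamma-synuclein, stood at 79.8, 95.4 and 71.9 in SHAM and 43.3, 45.1 and 41.5 FPKM in MOG (log2FoldChange -0.93 ± 0.11, edgeR adjusted p = 0.000148). Thy1, a surface glycoprotein of RGCs, stood at 53.9, 53.2 and 49.3 in SHAM and 40.1, 32.9 and 32.7 FPKM in MOG (log2FoldChange -0.57 ± 0.10, edgeR adjusted p = 0.00242). Slc17a6, the vesicular glutamate transporter through which RGCs load their transmitter, was also down-regulated (log2FoldChange -0.58 ± 0.12, edgeR adjusted p = 0.0252, up to 0.167).

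The axonal cytoskeleton was represented by the intermediate filaments. Nefl (chromosome 14, 68083863 to 68089095), the light neurofilament chain, stood at 85.9, 83.4 and 77.1 in SHAM and 48.2, 39.8 and 40.7 FPKM in MOG (log2FoldChange -0.94 ± 0.10, edgeR adjusted p = 3.48e-05). The medium chain Nefm stood at 27.01, 22.99 and 23.2 in SHAM and 14.3, 10.7 and 11.04 FPKM in MOG (log2FoldChange -1.03 ± 0.17, edgeR adjusted p = 0.0117, up to 0.0874). The heavy chain Nefh stood at 26.7, 23.1 and 22.7 in SHAM and 15.1, 11.6 and 12.8 FPKM in MOG (log2FoldChange -0.88 ± 0.11, edgeR adjusted p = 0.000366). Prph, peripherin, had the largest change of the list, at 2.22, 2.45 and 1.896 in SHAM and 0.949, 0.851 and 0.983 FPKM in MOG (log2FoldChange -1.24 ± 0.20, edgeR adjusted p = 0.0015). Ina, internexin alpha, changed less (log2FoldChange -0.51 ± 0.09, edgeR adjusted p = 0.00398, up to 0.0586). In each of these 5 filament genes no MOG library reached the lowest SHAM library, as in every down-regulated DEG. Exons of Nefl and Nefm overlap in the annotation used here, so a share of their fragments may not be assignable to either gene.

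Other genes of this list covered axon growth, protein turnover and signalling. Uchl1, an abundant neuronal deubiquitinase, stood at 85.5, 72.5 and 70.1 in SHAM and 46.99, 40.3 and 41.6 FPKM in MOG and had the lowest adjusted p of the list (log2FoldChange -0.83 ± 0.09, edgeR adjusted p = 2.47e-05). Nrn1, neuritin, stood at 15.6, 13.6 and 14.6 in SHAM and 8.98, 6.72 and 7.41 FPKM in MOG (log2FoldChange -0.92 ± 0.15, edgeR adjusted p = 0.00293). Chrna6, a nicotinic receptor subunit, stood at 34.98, 31.6 and 32.4 in SHAM and 24.6, 21.1 and 20.1 FPKM in MOG (log2FoldChange -0.59 ± 0.08, edgeR adjusted p = 0.000186). Down-regulated too were the neuronal tubulin Tubb3 (log2FoldChange -0.48 ± 0.07), the stathmins Stmn2 (-0.53 ± 0.11, edgeR adjusted p up to 0.103) and Stmn3 (-0.50 ± 0.10, edgeR adjusted p up to 0.0892), the calcium sensor Vsnl1 (-0.56 ± 0.12, edgeR adjusted p up to 0.271), the calcium buffer Pvalb (-1.02 ± 0.20, edgeR adjusted p up to 0.101) and the calcium sensor of exocytosis Syt2 (-0.48 ± 0.12, edgeR adjusted p up to 0.324). The 8 members that were not DEGs were Chrnb3 (-0.42 ± 0.12), Adcyap1 (-0.51 ± 0.22), L1cam (-0.24 ± 0.11), Fgf13 (-0.23 ± 0.10), Gap43 (-0.20 ± 0.11), Robo2 (-0.16 ± 0.09), Mapt (-0.08 ± 0.07) and Nrg1 (0.14 ± 0.16). Gap43, a growth-associated protein of axons, stood at 18.2, 21.8 and 17.6 in SHAM and 15.6, 16.7 and 17.8 FPKM in MOG, with overlapping groups. The number of members called was 12 without SHAM replicate 1, 10 with replicate 2 or 3 of MOG left out, and 10 held in every alternative, with a median for the list between -0.67 and -0.51.

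**Figure D2:**
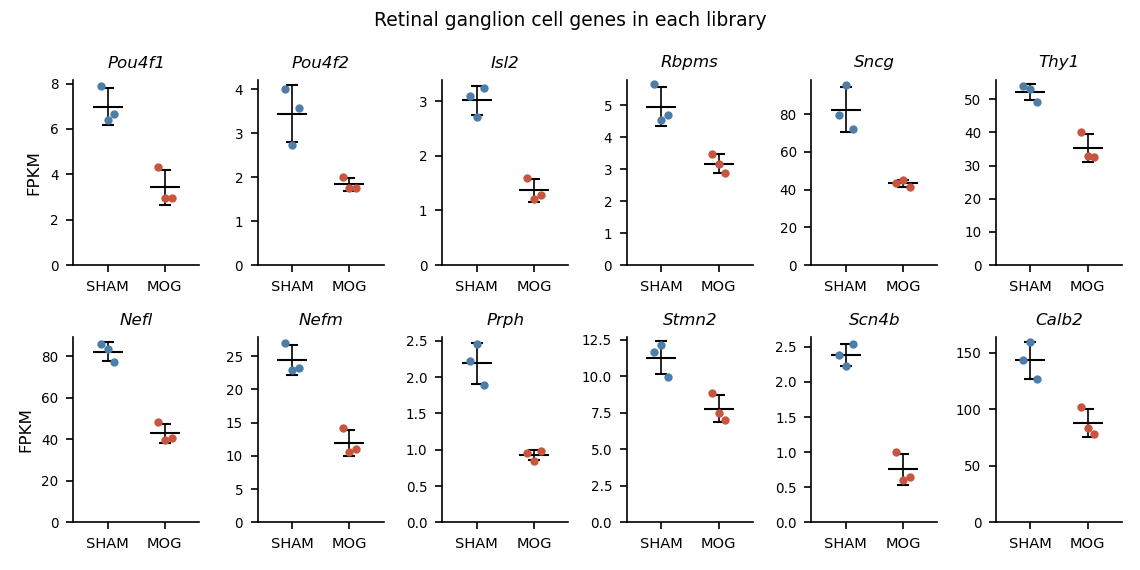
FPKM of 12 RGC genes in the 3 SHAM libraries (blue) and the 3 MOG libraries (red), with the mean and SD of each group in black and all axes from 0. The groups do not overlap in any panel, as in every DEG, and the distance is largest in proportion for Scn4b.

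Markers of single RGC types did not move as 1 block. Of 25 tested genes 3 were down-regulated and none was upregulated, with a median log2FoldChange of -0.13. Values lay below 0 in 17 genes and above it in 8, up to 0.75. Every MOG library lay below every SHAM library in 5 of the 25 and above it in 2, against 8.34% and 7.87% of all tested genes. Calb2, calretinin, which several amacrine types also express, was the most abundant of them at 144, 159 and 127 in SHAM and 102, 83.8 and 78.6 FPKM in MOG (log2FoldChange -0.71 ± 0.11, edgeR adjusted p = 0.00306). Trarg1 stood at 9.61, 9.11 and 8.03 in SHAM and 5.17, 5.63 and 3.79 FPKM in MOG (log2FoldChange -0.88 ± 0.15, edgeR adjusted p = 0.00395). The protease Mmp9 stood at 4.29, 4.497 and 4.25 in SHAM and 2.92, 2.93 and 3.15 FPKM in MOG (log2FoldChange -0.54 ± 0.13, edgeR adjusted p = 0.04, up to 0.21). Opn4, the melanopsin of intrinsically photosensitive RGCs, stood at 1.46, 1.16 and 1.17 in SHAM and 1.21, 1.03 and 0.884 FPKM in MOG, with overlapping groups (log2FoldChange -0.28 ± 0.21, edgeR adjusted p = 0.604). Markers of alpha RGCs gave small differences, with -0.13 ± 0.12 for Spp1 and -0.03 ± 0.10 for Kcng4. Values for direction-selective RGCs were -0.22 ± 0.12 for Cartpt, -0.13 ± 0.11 for Mmp17 and 0.04 ± 0.13 for Cdh6, and that for Jam2 was 0.04 ± 0.07. Whether the subtype markers differ from the pan-RGC markers in their change was not tested.

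The other neurons of the retina gave no DEG on their lists. Over 27 amacrine genes the median log2FoldChange was 0.0010, over 11 horizontal cell genes 0.04, over 26 bipolar genes 0.07, over 26 rod genes -0.0093 and over 17 cone genes -0.07. Tfap2b, a factor of amacrine cells, stood at 26.6, 21.9 and 26.3 in SHAM and 28.4, 25.1 and 25.8 FPKM in MOG (0.08 ± 0.09). Among the wider differences on these lists, none of them called, was cone arrestin Arr3 at 122, 191 and 167 in SHAM and 86.7, 116 and 136 FPKM in MOG (-0.51 ± 0.20, edgeR adjusted p = 0.33). Others were Neto1 of bipolar cells (0.48 ± 0.16, edgeR adjusted p = 0.161) and Onecut3 of horizontal cells (-0.46 ± 0.19, edgeR adjusted p = 0.284). With every gene with a count in the model 2 of the bipolar genes were called. Without SHAM replicate 3 there was 1 bipolar gene, and without SHAM replicate 2 there was 1 cone gene. With the replicate number as a block in the model 1 cone gene was called too.

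**Figure D3:**
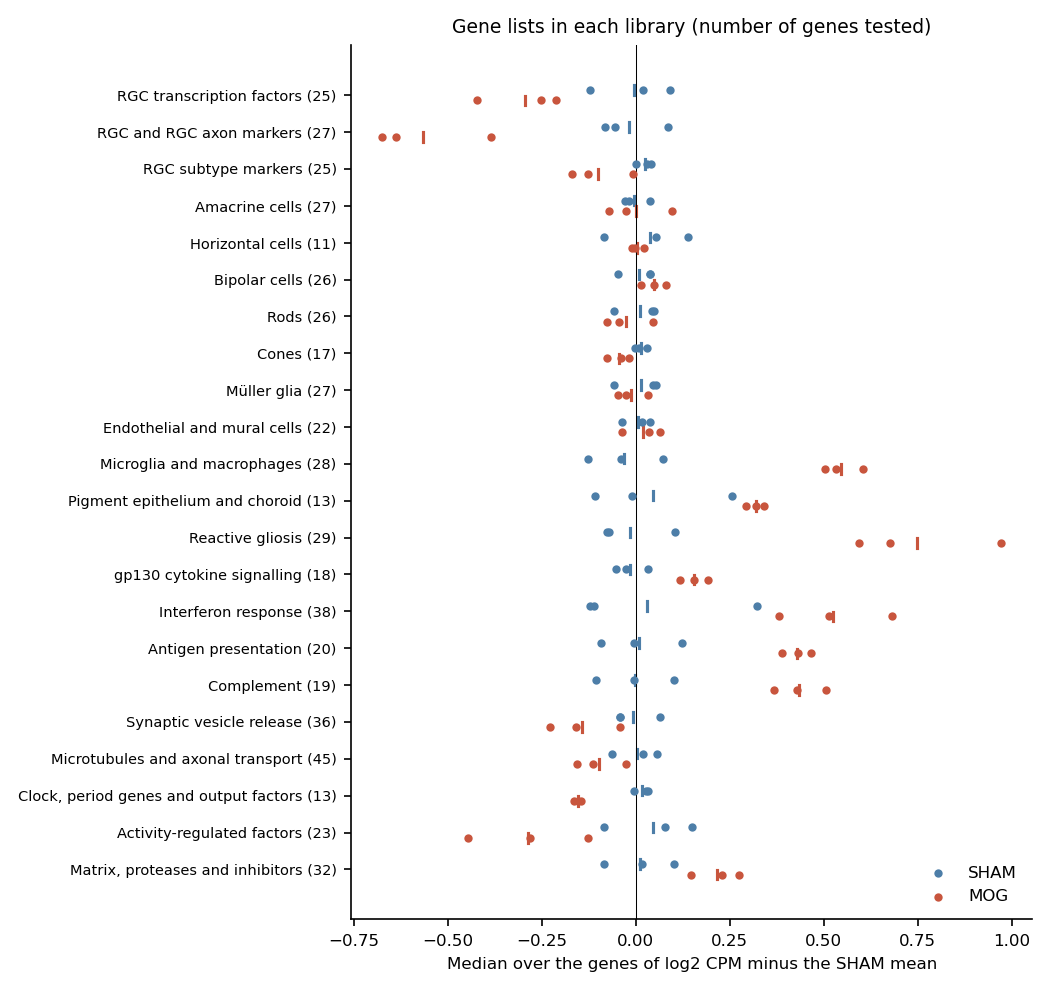
For 22 gene lists, each point is the median over the tested genes (number in parentheses) of log2 CPM in a library minus the mean of the SHAM libraries, with SHAM in blue, MOG in red and the group means as vertical bars. MOG libraries lie left of SHAM for RGC lists and right of it for gliosis, microglial, complement and antigen presentation lists, whereas amacrine, horizontal, bipolar, rod and Müller lists stay close to 0.

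Most excitability, transmitter release and transport genes shared by many neurons were not DEGs, and those that fell included several RGC markers named above. The down-regulated counts on these lists are to be read beside 0.771% of all tested genes. Every MOG library lay below every SHAM library in 13 of 36 synaptic vesicle genes and 14 of 45 transport genes, and above it in 2 and 0 of them. Over all tested genes these shares were 8.34% and 7.87%. Of 15 voltage-gated sodium channel genes 2 were down-regulated, and 4 were called without SHAM replicate 2. Scn4b, an auxiliary subunit which shapes resurgent current, stood at 2.38, 2.22 and 2.54 in SHAM and 1.01, 0.6096 and 0.645 FPKM in MOG (log2FoldChange -1.65 ± 0.20, edgeR adjusted p = 3.48e-05). The pore-forming subunits Scn1a (-0.26 ± 0.10) and Scn2a (-0.15 ± 0.10) were not DEGs. Of 52 potassium channel genes 3 were down-regulated and 1 was upregulated, and the list had 1 call without replicate 1 of SHAM or replicate 2 or 3 of MOG. Kcnip4, a partner of A-type channels, stood at 11.7, 11.4 and 12.1 in SHAM and 8.104, 7.55 and 7.63 FPKM in MOG (log2FoldChange -0.60 ± 0.09, edgeR adjusted p = 0.000726), and Kcnd2, the A-type channel Kv4.2, at 2.36, 2.09 and 2.28 in SHAM and 1.56, 1.14 and 1.09 FPKM in MOG (log2FoldChange -0.83 ± 0.18, edgeR adjusted p = 0.0179, up to 0.158). Kcng2, a modifying subunit at a low level, was lower (log2FoldChange -1.65 ± 0.40, edgeR adjusted p = 0.0359, up to 0.232), and Kcnma1, the large-conductance calcium-activated channel, was higher (log2FoldChange 0.33 ± 0.08, edgeR adjusted p = 0.0497, up to 0.257).

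Synaptic vesicle genes had a median log2FoldChange of -0.14 and 6 of 36 were down-regulated. That count was 3 with replicate 1 of SHAM or replicate 2 or 3 of MOG left out, 9 without SHAM replicate 3, and 11 with every gene with a count. Vamp1, the vesicle SNARE synaptobrevin 1, stood at 10.8, 11.2 and 10.3 in SHAM and 6.402, 6.59 and 7.14 FPKM in MOG (log2FoldChange -0.68 ± 0.07, edgeR adjusted p = 4.63e-06). Cplx1, complexin 1, which clamps vesicle fusion, stood at 52.03, 50.9 and 45.6 in SHAM and 29.6, 24.2 and 25.02 FPKM in MOG (log2FoldChange -0.91 ± 0.11, edgeR adjusted p = 0.00014), and Cplx2 was lower by less (log2FoldChange -0.41 ± 0.09, edgeR adjusted p = 0.019, up to 0.171). The remaining 3 were Sncg, Slc17a6 and Syt2, which also stand on the RGC list. Snap25, present at every conventional synapse, stood at 162, 161 and 153 in SHAM and 151, 133 and 134 FPKM in MOG and was not a DEG (-0.19 ± 0.08, edgeR adjusted p = 0.299).

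Among 41 transmitter receptor genes, Chrna6 and 2 others were down-regulated. Lynx1, a toxin-like modulator of nicotinic receptors, stood at 46.1, 43.6 and 41.6 in SHAM and 33.6, 28.7 and 29.2 FPKM in MOG (log2FoldChange -0.52 ± 0.08, edgeR adjusted p = 0.000448). The adrenergic receptor Adra2a stood at 10.2, 11.2 and 11.6 in SHAM and 8.598, 7.56 and 7.91 FPKM in MOG (log2FoldChange -0.46 ± 0.08, edgeR adjusted p = 0.00283). Microtubule and transport genes had 7 of 45 down-regulated and none upregulated. Tppp3, a tubulin polymerization promoting protein, stood at 40.8, 40.6 and 30.6 in SHAM and 23.1, 20.8 and 18.5 FPKM in MOG (log2FoldChange -0.85 ± 0.13, edgeR adjusted p = 0.00176). The kinesin heavy chain Kif5a, restricted to neurons, was lower (log2FoldChange -0.34 ± 0.08, edgeR adjusted p = 0.0388, up to 0.283), whereas Kif5b (0.12 ± 0.08), Kif5c (-0.07 ± 0.09) and Kif1a (0.05 ± 0.09) were not DEGs. Stmn1 (-0.43 ± 0.09, edgeR adjusted p up to 0.135) and the kinesin light chain Klc2 (-0.28 ± 0.07, edgeR adjusted p up to 0.232) completed the 7 with Tubb3, Stmn2 and Stmn3. The number of transport genes called was 3 without SHAM replicate 1, and 2 with replicate 2 or 3 of MOG left out. Of 31 calcium handling genes 5 were down-regulated, namely Calb2, Pvalb, Vsnl1, the calcium sensor Hpca at 28.8, 31.8 and 25.8 in SHAM and 23.4, 20.9 and 21.98 FPKM in MOG (log2FoldChange -0.38 ± 0.08, edgeR adjusted p = 0.0114, up to 0.128) and the channel subunit Cacna2d3 at 8.57, 9.82 and 8.22 in SHAM and 6.78, 6.72 and 6.88 FPKM in MOG (log2FoldChange -0.39 ± 0.08, edgeR adjusted p = 0.016, up to 0.108), and the list had 2 calls without replicate 1 or 2 of SHAM and 1 without replicate 2 or 3 of MOG.

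Reactive gliosis had the largest share of upregulated genes of the 46 lists, 13 of 29, with none down-regulated and a median log2FoldChange of 0.71. Per library, the median of the 29 genes relative to the SHAM mean was -0.08, 0.10 and -0.07 in SHAM and 0.59, 0.97 and 0.68 in MOG. Gfap (chromosome 11, 102887336 to 102900912), the intermediate filament of reactive glia, stood at 4.85, 6.303 and 5.14 in SHAM and 12.7, 13.7 and 12.3 FPKM in MOG (log2FoldChange 1.25 ± 0.17, edgeR adjusted p = 0.00287). Serpina3n, a secreted serine protease inhibitor of reactive astroglia, stood at 1.95, 3.25 and 2.45 in SHAM and 9.05, 12.9 and 10.5 FPKM in MOG (log2FoldChange 2.08 ± 0.27, edgeR adjusted p = 0.00287). Fgf2, a growth factor made by Müller cells under stress, had the lowest adjusted p of the list at 4.46, 4.38 and 4.22 in SHAM and 8.81, 8.65 and 11.2 FPKM in MOG (log2FoldChange 1.13 ± 0.10, edgeR adjusted p = 9.51e-07). Its reads may include those of Nudt6, as said above.

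Further upregulated genes of this list were of several kinds. Edn2, endothelin 2, which photoreceptors release after injury, stood at 5.42, 8.37 and 4.88 in SHAM and 16.6, 17.4 and 28.1 FPKM in MOG (log2FoldChange 1.73 ± 0.26, edgeR adjusted p = 0.00893, up to 0.064). A2m, a protease trap and cytokine carrier, stood at 0.965, 0.972 and 0.782 in SHAM and 2.2, 3.02 and 2.55 FPKM in MOG (log2FoldChange 1.51 ± 0.26, edgeR adjusted p = 0.0117, up to 0.113). S100a6 stood at 2.06, 3.03 and 2.05 in SHAM and 5.67, 5.42 and 5.05 FPKM in MOG (log2FoldChange 1.17 ± 0.20, edgeR adjusted p = 0.00173) and the hyaluronan receptor Cd44 at 1.18, 1.11 and 1.21 in SHAM and 1.86, 1.9 and 2.21 FPKM in MOG (log2FoldChange 0.77 ± 0.14, edgeR adjusted p = 0.00289). Gpnmb, a glycoprotein of phagocytes and pigment cells, stood at 0.516, 0.403 and 0.489 in SHAM and 1.41, 1.84 and 1.67 FPKM in MOG (log2FoldChange 1.80 ± 0.17, edgeR adjusted p = 1.57e-06). Bcl3, a regulator of NF-kappaB, was higher at a low level (log2FoldChange 1.70 ± 0.39, edgeR adjusted p = 0.0263, up to 0.147), and so was the ferroxidase Cp (log2FoldChange 0.31 ± 0.07, edgeR adjusted p = 0.0194, up to 0.123). Vim, vimentin, the other intermediate filament of Müller cells, stood at 19.99, 21.8 and 19.3 in SHAM and 22.7, 22.6 and 21.6 FPKM in MOG and was not a DEG (0.13 ± 0.07, edgeR adjusted p = 0.474), and neither were Nes (0.22 ± 0.19), Lcn2 (0.54 ± 0.24) or Tnc (0.00 ± 0.15). The calls numbered 10 without SHAM replicate 1 and 10 without MOG replicate 3, and 9 held in every alternative.

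Osmr and Stat3 connect this list with cytokine signalling through gp130. Osmr, the oncostatin M receptor, stood at 0.594, 0.525 and 0.5804 in SHAM and 1.26, 1.49 and 1.61 FPKM in MOG (log2FoldChange 1.36 ± 0.14, edgeR adjusted p = 5.35e-06). Stat3, the factor that gp130 receptors activate, stood at 6.07, 7.25 and 7.41 in SHAM and 10.5, 10.7 and 12.8 FPKM in MOG (log2FoldChange 0.71 ± 0.10, edgeR adjusted p = 0.000224). They were the only DEGs among 18 genes of gp130 signalling, whose median log2FoldChange was 0.16. The shared chain Il6st stood at 10.6, 8.99 and 11.4 in SHAM and 12.1, 11.9 and 12.3 FPKM in MOG (0.22 ± 0.08, edgeR adjusted p = 0.235) and the receptor Lifr at 8.27, 7.36 and 8.89 in SHAM and 8.77, 8.602 and 8.84 FPKM in MOG (0.09 ± 0.08). Socs3 (0.56 ± 0.20) and the ligand Lif (1.22 ± 0.42) had every MOG library above every SHAM library and did not pass the test.

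**Figure D4:**
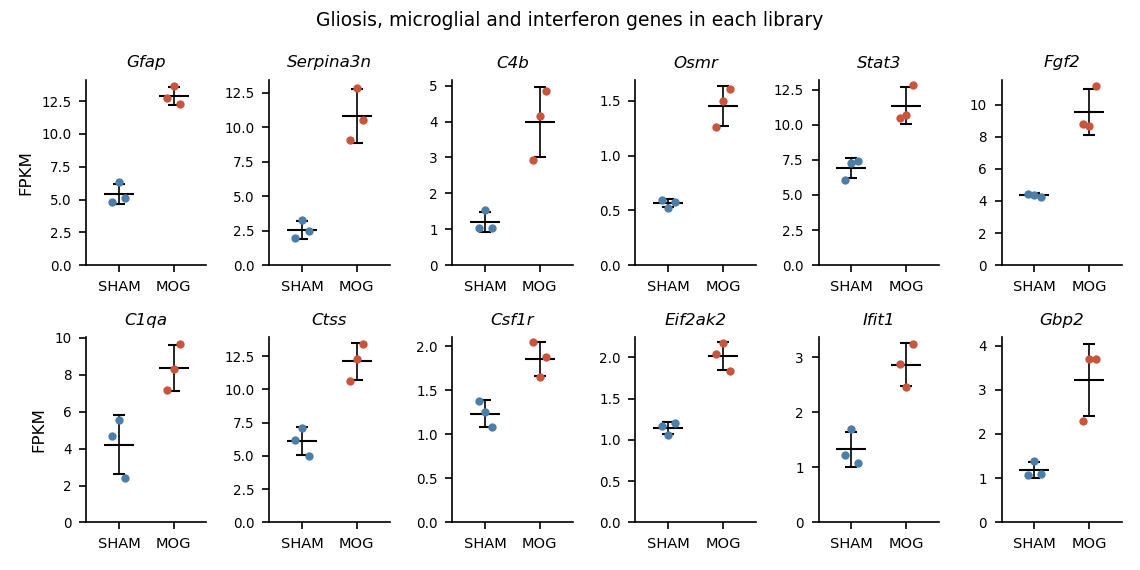
FPKM of 12 gliosis, complement, microglial and interferon genes in the 3 SHAM libraries (blue) and the 3 MOG libraries (red), with the mean and SD of each group in black and all axes from 0. Every MOG library lies above every SHAM library in each panel, as in every upregulated DEG. Ifit1 and Gbp2 are shown although they did not pass the test over all genes.

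Müller cell identity genes changed little beside these, with 2 of 27 upregulated and a median log2FoldChange of -0.02. Prss56, a secreted serine protease of Müller cells linked to eye growth, stood at 4.15, 4.12 and 2.95 in SHAM and 8.698, 10.2 and 8.14 FPKM in MOG (log2FoldChange 1.27 ± 0.16, edgeR adjusted p = 8.78e-05). Aqp4, the water channel of their endfeet, stood at 22.01, 19.01 and 20.3 in SHAM and 29.97, 28.3 and 26.4 FPKM in MOG (log2FoldChange 0.46 ± 0.07, edgeR adjusted p = 0.000812). Glul, glutamine synthetase, had every MOG library below the SHAM libraries at 645, 621 and 596 in SHAM and 566, 494 and 502 FPKM in MOG and was not a DEG (-0.26 ± 0.08, edgeR adjusted p = 0.117). Its lowest edgeR adjusted p over the alternatives was 0.0304, so its call depended on the setting. Rlbp1 (-0.15 ± 0.08), Slc1a3 (-0.09 ± 0.08) and Kcnj10 (-0.04 ± 0.09), which serve the visual cycle, glutamate uptake and potassium buffering, were not DEGs.

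Microglial and macrophage genes were upregulated in 5 of 28 cases, with a median log2FoldChange of 0.62 and 25 of 28 values above 0. The list's median per library was -0.04, 0.07 and -0.13 in SHAM and 0.53, 0.50 and 0.60 in MOG, relative to the SHAM mean. Ctss, the lysosomal protease cathepsin S, stood at 6.18, 7.13 and 5.02 in SHAM and 10.6, 12.3 and 13.4 FPKM in MOG (log2FoldChange 0.98 ± 0.16, edgeR adjusted p = 0.0015). Mpeg1, perforin-2 of macrophages, stood at 1.15, 0.793 and 0.912 in SHAM and 1.904, 1.72 and 1.99 FPKM in MOG (log2FoldChange 0.98 ± 0.18, edgeR adjusted p = 0.00453). Clec7a, the receptor dectin-1 of activated microglia, stood at 0.0909, 0.0442 and 0.104 in SHAM and 0.317, 0.5296 and 0.338 FPKM in MOG (log2FoldChange 2.26 ± 0.50, edgeR adjusted p = 0.0206, up to 0.166). Csf1r, the survival receptor of microglia, was higher by less (log2FoldChange 0.59 ± 0.14, edgeR adjusted p = 0.0269, up to 0.13), and C1qa belonged to this list and to complement. Genes typical of resting microglia were not DEGs. P2ry12 stood at 0.754, 1.14 and 0.8198 in SHAM and 1.402, 0.501 and 1.08 FPKM in MOG (0.14 ± 0.28), Tmem119 at 0.751, 0.6799 and 0.902 in SHAM and 0.988, 0.997 and 0.746 FPKM in MOG (0.22 ± 0.24) and Cx3cr1 at 1.03, 0.841 and 0.646 in SHAM and 1.08, 0.917 and 0.991 FPKM in MOG (0.25 ± 0.20). Whether activation genes and resting genes differ in their change was not tested. Lyz2, of macrophages and granulocytes, reached 0.684, 1.06 and 0.501 in SHAM and 1.102, 7.48 and 1.13 FPKM in MOG, with MOG replicate 2 the highest library (2.10 ± 0.93, edgeR adjusted p = 0.389). The calls numbered 4 without replicate 3 of SHAM, 3 without replicate 1 of either group or replicate 2 of MOG, and 2 without replicate 3 of MOG.

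Complement genes were upregulated in 3 of 19 cases and down-regulated in 0, with a median log2FoldChange of 0.42. Values lay above 0 in 15 genes and below it in 4, down to -0.83. Every MOG library lay above every SHAM library in 8 of the 19 and below it in 3, against 7.87% and 8.34% of all tested genes. C4b, the fourth component, stood at 1.03, 1.53 and 1.03 in SHAM and 2.94, 4.15 and 4.86 FPKM in MOG (log2FoldChange 1.73 ± 0.22, edgeR adjusted p = 0.00133). C1qa, a chain of the C1q complex that tags synapses and debris, stood at 4.67, 5.55 and 2.43 in SHAM and 7.19, 8.29 and 9.67 FPKM in MOG (log2FoldChange 0.99 ± 0.24, edgeR adjusted p = 0.0451, up to 0.227). Serping1, the inhibitor of the C1 proteases, stood at 2.58, 3.06 and 2.197 in SHAM and 4.03, 4.57 and 4.66 FPKM in MOG (log2FoldChange 0.76 ± 0.16, edgeR adjusted p = 0.0152, up to 0.101). C1qb (0.69 ± 0.19, edgeR adjusted p = 0.0819) had non-overlapping groups, and C1qc (0.38 ± 0.21, edgeR adjusted p = 0.451) overlapped. With replicate 1 or 3 of SHAM or replicate 2 or 3 of MOG left out only 1 of these remained called, and without SHAM replicate 2 there were 5.

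Antigen presentation genes had a median log2FoldChange of 0.40, with 18 of 20 values above 0 and every MOG library above every SHAM library in 11 of 20, where the share over all genes was 7.87%. The DEG among them was Nlrc5, the transactivator of MHC class I genes, at 0.0989, 0.1098 and 0.0582 in SHAM and 0.223, 0.257 and 0.294 FPKM in MOG (log2FoldChange 1.53 ± 0.33, edgeR adjusted p = 0.0151, up to 0.0997). The class I genes H2-K1 at 9.77, 11.6 and 10.8 in SHAM and 15.1, 15.1 and 14.5 FPKM in MOG (0.47 ± 0.15, edgeR adjusted p = 0.201) and H2-D1 at 18.7, 20.9 and 17.2 in SHAM and 24.6, 22.8 and 22.5 FPKM in MOG (0.30 ± 0.10, edgeR adjusted p = 0.165) did not overlap between groups and did not pass the test. These genes are close copies of each other, so their counts are uncertain. The list had 3 calls each with DESeq2 and edgeR on the 6 libraries, H2-K1 among them, and 4 with every gene with a count, with H2-K1 and H2-D1 among them. Nlrc5 lost its call with replicate 1 or 3 of SHAM or replicate 2 or 3 of MOG left out.

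Genes of infiltrating immune cells were scarce in both groups. Of 20 lymphocyte and neutrophil genes 2 passed the filter, and the other 18 together held 13 to 24 counts in the SHAM libraries and 13 to 34 in the MOG libraries, of which no gene held more than 12 in a library. Lck stood at 0.225, 0.219 and 0.206 in SHAM and 0.571, 0.166 and 0.366 FPKM in MOG (0.77 ± 0.41, edgeR adjusted p = 0.432). Of 30 chemokine and cytokine genes 16 passed the filter and 1 was upregulated, the tumor necrosis factor receptor Tnfrsf1a at 2.38, 2.38 and 1.87 in SHAM and 3.51, 3.704 and 3.58 FPKM in MOG (log2FoldChange 0.70 ± 0.16, edgeR adjusted p = 0.029, up to 0.137), which lost its call without any single library except SHAM replicate 2. The 14 genes below the filter held 23 counts in all SHAM libraries together and 82 in the MOG libraries. Cx3cl1, the neuronal ligand of the microglial receptor Cx3cr1, stood at 24.04, 21.3 and 21.02 in SHAM and 19.1, 16.9 and 17.1 FPKM in MOG, with every MOG library below SHAM, and was not a DEG (-0.32 ± 0.09, edgeR adjusted p = 0.0904).

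Interferon response genes leaned upward as a list, with a median log2FoldChange of 0.59 and 37 of 38 values above 0. Every MOG library lay above every SHAM library in 20 of 38, against 7.87% of all tested genes, although only 3 passed the test. Interferons act through STAT and IRF factors, which bind a response element in the promoters of these genes. Promoters of members of the list are printed because they hold letters that match the core of that element. They span the start of the gene, with most of the bases before it, come from RefSeq on build GRCm38.p6 and read 5′ to 3′ on the strand of the gene. Capitals mark every match to the core GAAANNGAA on either strand, where N is any base. Eif2ak2 lies at chr17:78882523-78882822, minus strand, Ifit1 at chr19:34640639-34640938, plus strand, Gbp2 at chr3:142620413-142620712, plus strand and Rsad2 at chr12:26456403-26456702, minus strand.
Eif2ak2: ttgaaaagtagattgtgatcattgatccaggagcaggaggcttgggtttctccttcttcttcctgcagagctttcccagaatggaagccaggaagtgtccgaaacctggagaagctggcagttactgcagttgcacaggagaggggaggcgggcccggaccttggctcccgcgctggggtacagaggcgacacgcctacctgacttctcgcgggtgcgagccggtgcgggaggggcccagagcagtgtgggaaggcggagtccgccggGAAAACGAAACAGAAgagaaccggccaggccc
Ifit1: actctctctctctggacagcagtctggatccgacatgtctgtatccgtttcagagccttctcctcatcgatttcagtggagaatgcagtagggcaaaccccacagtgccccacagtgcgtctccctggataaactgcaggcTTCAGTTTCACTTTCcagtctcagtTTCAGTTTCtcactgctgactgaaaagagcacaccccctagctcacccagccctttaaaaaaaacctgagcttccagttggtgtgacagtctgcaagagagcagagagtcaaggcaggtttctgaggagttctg
Gbp2: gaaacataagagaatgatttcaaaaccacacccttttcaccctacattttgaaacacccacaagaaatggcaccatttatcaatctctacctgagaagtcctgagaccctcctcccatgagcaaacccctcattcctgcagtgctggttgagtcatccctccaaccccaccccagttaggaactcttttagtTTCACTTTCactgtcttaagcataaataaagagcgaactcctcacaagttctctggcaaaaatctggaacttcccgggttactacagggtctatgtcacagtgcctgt
Rsad2: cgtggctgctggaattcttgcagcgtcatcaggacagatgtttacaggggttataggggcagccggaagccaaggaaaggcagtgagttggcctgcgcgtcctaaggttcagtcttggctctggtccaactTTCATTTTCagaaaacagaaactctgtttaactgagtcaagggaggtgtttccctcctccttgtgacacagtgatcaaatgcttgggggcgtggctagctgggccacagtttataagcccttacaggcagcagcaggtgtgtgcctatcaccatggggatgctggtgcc

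In Eif2ak2 there are 2 matches, which overlap and begin 19 and 25 bases after the start. Ifit1 holds 3, beginning at -109, -103 and -84, of which the first pair overlaps. The matches of Gbp2 and Rsad2 begin at -58 and -119. A promoter was found for 27 of the 38 interferon genes, and 18 of these (66.7%) held the core, against 8.44% of the 12256 tested genes with a promoter. DEGs held it at about that share, with 7 of 77 upregulated (9.09%) and 9 of 99 down-regulated genes (9.09%). A match is a run of letters and does not show that a factor binds there.

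Of the 3 upregulated interferon genes, Oas2, an enzyme that senses viral RNA, stood at 0.0674, 0.0655 and 0.0494 in SHAM and 0.551, 0.409 and 0.388 FPKM in MOG (log2FoldChange 2.86 ± 0.46, edgeR adjusted p = 0.00133). Eif2ak2, the RNA-activated kinase PKR, stood at 1.17, 1.06 and 1.203 in SHAM and 2.04, 2.17 and 1.84 FPKM in MOG (log2FoldChange 0.81 ± 0.16, edgeR adjusted p = 0.00795, up to 0.0637). Parp14, a mono-ADP-ribosyl transferase, stood at 0.464, 0.733 and 0.632 in SHAM and 1.11, 0.959 and 1.298 FPKM in MOG (log2FoldChange 0.88 ± 0.19, edgeR adjusted p = 0.0186, up to 0.147). Ifit1, which binds foreign RNA ends, stood at 1.22, 1.69 and 1.08 in SHAM and 2.88, 2.47 and 3.25 FPKM in MOG (1.11 ± 0.27, edgeR adjusted p = 0.0604). The guanylate binding protein Gbp2 stood at 1.07, 1.39 and 1.09 in SHAM and 2.28, 3.69 and 3.69 FPKM in MOG (1.44 ± 0.33, edgeR adjusted p = 0.0532). Rsad2, viperin, had 1.14 ± 0.32 (edgeR adjusted p = 0.0912). Isg15 (0.21 ± 0.28) and Ifit3 (0.19 ± 0.29) overlapped between groups. The list's median per library was -0.11, 0.32 and -0.12 in SHAM and 0.52, 0.38 and 0.68 in MOG, so that SHAM replicate 2 came close to MOG replicate 2. Called genes numbered 7 without SHAM replicate 2, 5 without MOG replicate 1 and 2 with replicate 1 of SHAM or replicate 2 or 3 of MOG left out, 7 with DESeq2 or edgeR on the 6 libraries, and 11 with every gene with a count.

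Genes of axon injury and regeneration did not move together, with 2 of 28 upregulated and a median log2FoldChange of 0.07. Ecel1, a neuronal endopeptidase-like protein induced by nerve injury, stood at 0.206, 0.267 and 0.2197 in SHAM and 1.896, 1.39 and 2.5 FPKM in MOG (log2FoldChange 3.05 ± 0.25, edgeR adjusted p = 3.23e-07). Sprr1a, a small proline-rich protein of regenerating axons, had 0 counts in every SHAM library and 7, 6 and 16 counts in the MOG libraries, at least 9.81-fold more than the 3 counts that 0 over the SHAM group allows (edgeR adjusted p = 0.0186), and it lost its call without SHAM replicate 1 or MOG replicate 3. Other injury genes were expressed and were not DEGs, such as Atf3 at 4.57, 4.79 and 4.004 in SHAM and 4.89, 4.46 and 6.49 FPKM in MOG (0.24 ± 0.19, edgeR adjusted p = 0.619) and Jun at 15.3, 14.9 and 14.2 in SHAM and 17.2, 14.9 and 15.6 FPKM in MOG (0.10 ± 0.08, edgeR adjusted p = 0.615). None of 22 genes of intrinsic apoptosis, 24 of the unfolded protein and integrated stress response and 21 heat shock chaperones was a DEG. Bax (-0.14 ± 0.11), Bcl2l1 (-0.16 ± 0.07), Atf4 (-0.17 ± 0.09), Ddit3 (-0.03 ± 0.10) and Hspa8 (-0.15 ± 0.09) are examples. Over these 3 lists edgeR gave medians of -0.01, -0.04 and -0.06, and with every gene with a count in the model 1, 1 and 3 of their genes were called. Heat shock chaperones were also called with DESeq2 on the 6 libraries (1), with the length and GC offset (2), without SHAM replicate 3 (1) and without MOG replicate 1 (2).

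Secreted factors changed in both directions. Of 26 neurotrophic genes 3 were called, and 5 without SHAM replicate 3 or MOG replicate 1. Fgf2 and Edn2 were upregulated, and Fgf1, a growth factor of retinal neurons, was down-regulated at 11.6, 11.3 and 10.03 in SHAM and 7.51, 5.29 and 6.71 FPKM in MOG (log2FoldChange -0.76 ± 0.13, edgeR adjusted p = 0.00297). Bdnf (-0.29 ± 0.18) and the receptor Ntrk2 (-0.01 ± 0.08) were not DEGs. Of 18 neuropeptide genes Calca, which encodes calcitonin gene-related peptide, was upregulated at 0.392, 0.415 and 0.261 in SHAM and 1.09, 1.08 and 1.696 FPKM in MOG (log2FoldChange 1.85 ± 0.34, edgeR adjusted p = 0.00414, up to 0.0568). Adcyap1, Cartpt and Npy did not pass the test, and Npy overlapped between groups (-0.13 ± 0.17). Calca lost its call without MOG replicate 3. Among 42 genes of cell adhesion and guidance the single DEG was Thy1, and the median was 0.02.

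Matrix genes had 5 of 32 upregulated and 1 down-regulated, with a median log2FoldChange of 0.21. Plat, tissue plasminogen activator, stood at 1.51, 1.55 and 1.77 in SHAM and 2.83, 3.09 and 3.24 FPKM in MOG (log2FoldChange 0.92 ± 0.12, edgeR adjusted p = 0.000104). Mmp14, a membrane-bound metalloproteinase, stood at 1.96, 2.17 and 2.63 in SHAM and 3.74, 3.71 and 3.64 FPKM in MOG (log2FoldChange 0.71 ± 0.12, edgeR adjusted p = 0.0015), with SHAM replicate 3 nearest to the MOG libraries. Col4a1, a basement membrane collagen, stood at 4.38, 4.81 and 5.63 in SHAM and 6.46, 7.495 and 7.54 FPKM in MOG (log2FoldChange 0.53 ± 0.09, edgeR adjusted p = 0.0028). Thbs1, thrombospondin 1, stood at 0.405, 0.451 and 0.443 in SHAM and 0.606, 1.07 and 0.774 FPKM in MOG (log2FoldChange 0.91 ± 0.22, edgeR adjusted p = 0.0325, up to 0.324). Mmp12, macrophage elastase, was higher at a very low level (log2FoldChange 2.38 ± 0.56, edgeR adjusted p = 0.0306, up to 0.154), and Mmp9 of the RGC subtype list was the one that was lower. Calls numbered 3 without MOG replicate 2 or MOG replicate 3.

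Metabolic and iron genes gave few calls. Hkdc1, a hexokinase domain protein, was the DEG of 25 glycolysis genes at 1.98, 1.91 and 1.97 in SHAM and 4.15, 4 and 4.27 FPKM in MOG, with little spread within either group (log2FoldChange 1.08 ± 0.12, edgeR adjusted p = 6.46e-06). Hk2, the hexokinase of photoreceptors, had every MOG library above SHAM at 63.8, 68.7 and 60.4 in SHAM and 100.4, 76 and 77.2 FPKM in MOG and was not a DEG (0.39 ± 0.12, edgeR adjusted p = 0.15). The glycolysis list had 2 calls without SHAM replicate 3 or MOG replicate 1. Of 17 iron genes 3 were upregulated. Trf, transferrin, stood at 0.506, 0.808 and 0.347 in SHAM and 1.11, 1.12 and 1.201 FPKM in MOG (log2FoldChange 1.04 ± 0.26, edgeR adjusted p = 0.0406, up to 0.183). The transferrin receptor Tfrc stood at 29.9, 27.7 and 31.5 in SHAM and 36.6, 36.8 and 35.2 FPKM in MOG (log2FoldChange 0.28 ± 0.07, edgeR adjusted p = 0.0337, up to 0.172), and Cp is given above. The ferritin chains Fth1 (-0.13 ± 0.09) and Ftl1 (-0.07 ± 0.08) were not DEGs. All 3 iron calls were lost when replicate 1 of SHAM or any MOG library was left out, and with edgeR on the 6 libraries. None of 26 cholesterol genes was a DEG (median -0.04), and this held in every alternative run for the list.

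**Figure D5:**
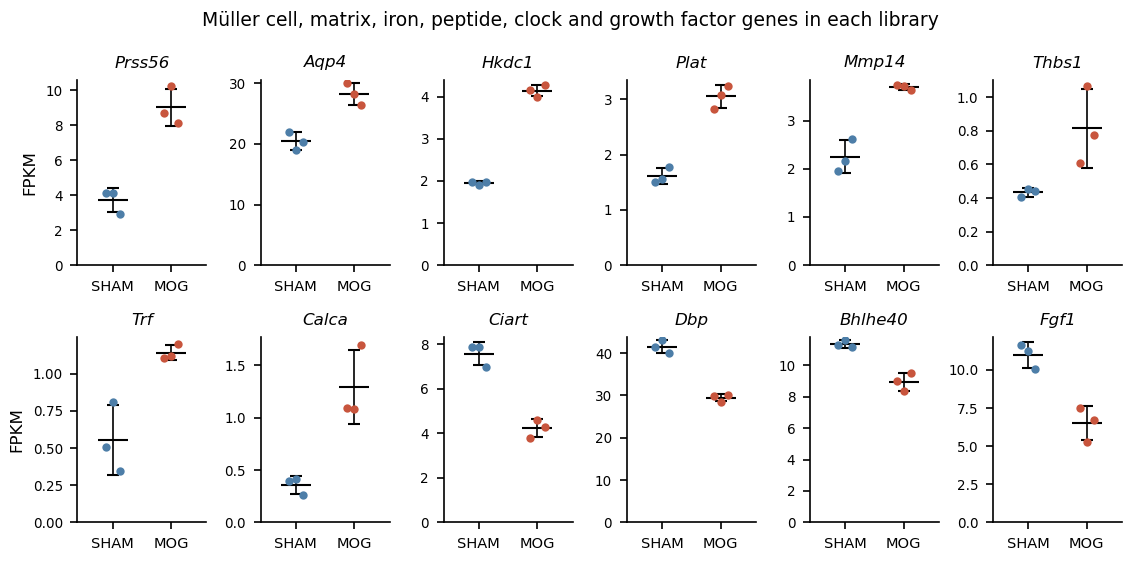
FPKM of 12 genes of Müller cells, matrix, iron transport, peptides, clock output and growth factors in the 3 SHAM libraries (blue) and the 3 MOG libraries (red), with the mean and SD of each group in black and all axes from 0. Prss56 to Calca are higher in MOG and Ciart to Fgf1 lower, without overlap of the groups, as in every DEG.

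Some clock output genes were lower in immunized retinas. The retina holds its own circadian clock, in which Clock and Bmal1 (Arntl) drive period genes and output factors through E-boxes. Of 13 period and output genes 3 were down-regulated and 2 had a value above 0, with a median log2FoldChange of -0.17. The list's median per library was -0.0059, 0.03 and 0.03 in SHAM and -0.15, -0.15 and -0.17 in MOG, relative to the SHAM mean. Dbp, a transcription factor of clock output, stood at 41.5, 43.01 and 40.05 in SHAM and 29.8, 28.5 and 29.99 FPKM in MOG (log2FoldChange -0.50 ± 0.07, edgeR adjusted p = 0.000434). Ciart, a repressor of Clock and Bmal1, stood at 7.85, 7.89 and 6.97 in SHAM and 3.799, 4.59 and 4.26 FPKM in MOG (log2FoldChange -0.85 ± 0.13, edgeR adjusted p = 0.00105). The repressor Bhlhe40 stood at 11.3, 11.6 and 11.1 in SHAM and 8.97, 8.35 and 9.49 FPKM in MOG (log2FoldChange -0.35 ± 0.08, edgeR adjusted p = 0.0313, up to 0.265). Per2 (-0.38 ± 0.11, edgeR adjusted p = 0.102), Per1 (-0.25 ± 0.10) and Cry2 (-0.17 ± 0.07) were not DEGs. None of 10 genes of the Bmal1 arm was a DEG, with Arntl at 13.5, 12.8 and 13.1 in SHAM and 14.4, 14.5 and 14.4 FPKM in MOG (0.13 ± 0.07, edgeR adjusted p = 0.405). The hour of tissue collection is not given per library in the labels, so its part in these values was not tested. The promoter of Ciart (chr3:95882179-95882478, minus strand, RefSeq, GRCm38.p6) is shown because it holds 3 E-boxes, CACGTG, in capitals, which begin at -116, -58 and -44.
Ciart: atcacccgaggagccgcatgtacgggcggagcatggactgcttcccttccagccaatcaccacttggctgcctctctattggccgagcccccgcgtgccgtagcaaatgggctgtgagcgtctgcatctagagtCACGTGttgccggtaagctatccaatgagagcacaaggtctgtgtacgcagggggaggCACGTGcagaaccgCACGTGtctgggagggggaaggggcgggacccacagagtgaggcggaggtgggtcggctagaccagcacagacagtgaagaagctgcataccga

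E-boxes stood in 4 of 11 promoters of this list (36.4%) and in 11.0% of all promoters searched. Among DEGs they stood in 10 of 77 upregulated (13.0%) and 14 of 99 down-regulated genes (14.1%). The remaining motifs were counted on both strands in the same way. The STAT element TTCNNNGAA stood in 8.14% of all promoters, 13 of 77 upregulated genes (16.9%) and 7 of 99 down-regulated genes (7.07%). It also stood in 10 of 27 interferon genes (37.0%) and 5 of 26 gliosis genes (19.2%), among them Gfap. The Fos and Jun element TGANTCA stood in 6.26% of all promoters, 9 of 77 upregulated genes (11.7%) and 7 of 99 down-regulated genes (7.07%). Its share was also 5 of 26 gliosis genes (19.2%), the same as for the STAT element, and 9 of 27 interferon genes (33.3%). The cyclic AMP element TGACGTCA stood in 3.38% of all promoters, in 0 of 77 upregulated and 5 of 99 down-regulated genes (5.05%). ATTAAT, part of the element bound by Brn3 factors, stood in 368 of the 12256 promoters and in 3 of 15 of the RGC and RGC axon markers, of which Pvalb and Slc17a6 were down-regulated. Over all DEGs it stood in 3 of 99 down-regulated (3.03%) and 3 of 77 upregulated genes. A run matching TTCNNNGAA can overlap one that matches GAAANNGAA.

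Activity-regulated genes had 3 of 23 values above 0 and a median log2FoldChange of -0.33. The lowest value was -1.65 and did not pass the test. Every MOG library lay below every SHAM library in 4 of the 23 and above it in 0, against 8.34% and 7.87% of all tested genes. The DEG on this list was Nptx1, a secreted pentraxin of synapses, at 19.5, 19.2 and 20.3 in SHAM and 16.7, 14.3 and 15.9 FPKM in MOG (log2FoldChange -0.33 ± 0.08, edgeR adjusted p = 0.0388, up to 0.344). Nptx1 is an effector of activity and no transcription factor. Fos stood at 22.5, 17.3 and 9.15 in SHAM and 9.41, 9.04 and 13.9 FPKM in MOG (-0.60 ± 0.34, edgeR adjusted p = 0.505), with a wide spread among the SHAM libraries. Among 19 glucocorticoid targets Tsc22d3, the glucocorticoid-induced leucine zipper, was down-regulated at 7.94, 8.93 and 7.78 in SHAM and 6.33, 6.14 and 6.25 FPKM in MOG (log2FoldChange -0.40 ± 0.08, edgeR adjusted p = 0.0131, up to 0.0925), while Fkbp5 (0.20 ± 0.10) and Sgk1 (-0.01 ± 0.08) were not DEGs. Both calls were lost with replicate 2 or 3 of MOG left out. Other members were called elsewhere, so that the activity list had 3 calls with DESeq2 on the 6 libraries, 4 with every gene with a count, 2 without replicate 3 of MOG and 0 with edgeR on the 6 libraries. Nptx1 also lost its call without replicate 1 or 3 of SHAM and Tsc22d3 without replicate 2 of SHAM.

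None of 83 cytosolic ribosomal protein genes was a DEG, with a median log2FoldChange of -0.08, and 2 were called without SHAM replicate 3. Nuclear genes of the respiratory chain had 80 of 82 values below 0 and a median of -0.15, and none was a DEG, whereas 10 were called without SHAM replicate 3. Their median per library was -0.0056, 0.20 and -0.20 in SHAM and -0.07, -0.17 and -0.21 in MOG, relative to the SHAM mean, so that SHAM replicates 2 and 3 lay further apart than the group means. These genes are short, with a median of 1631 exonic bases, and the trend on length described above runs in the same direction. The list's median lay between -0.24 and -0.05 in the 13 alternatives, the length and GC offset among them. The part of length in these values was not tested. Atp5b, a subunit of ATP synthase, stood at 242, 259 and 216 in SHAM and 237, 204 and 215 FPKM in MOG (-0.13 ± 0.08). The 12 mitochondrial genes had a median of -0.02, and mitochondrial genes took 2.46% to 2.70% of counts in SHAM and 2.51% to 2.79% in MOG (exact permutation test, 2-sided, p = 0.8, adjusted 0.8 over 6 shares, where 3 against 3 cannot go below 0.1).

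Cells beside the neural retina could enter the dissection, and their markers were checked. Pigment epithelium and choroid genes had 12 of 13 values above 0, a median log2FoldChange of 0.27 and a summed level of 18.9 to 23.3 FPKM in SHAM and 28.8 to 33.3 FPKM in MOG. Rpe65, which defines pigment epithelium, stood at 0.248, 0.693 and 0.568 in SHAM and 1.53, 2.29 and 0.923 FPKM in MOG (1.63 ± 0.47, edgeR adjusted p = 0.145), Ttr at 6.49, 8.46 and 4.596 in SHAM and 10.98, 13.3 and 11.3 FPKM in MOG (0.86 ± 0.35, edgeR adjusted p = 0.337) and Lrat at 0.191, 0.2397 and 0.154 in SHAM and 0.386, 0.443 and 0.378 FPKM in MOG (1.04 ± 0.29, edgeR adjusted p = 0.0807). The pigment genes Tyr (0.27 ± 0.51), Tyrp1 (0.17 ± 0.32) and Dct (0.04 ± 0.24) overlapped between groups. None was a DEG in the 12-library model, whereas DESeq2 and edgeR on the 6 libraries called 3 each and the model with every gene with a count called 1. The part of these cells in the changes of Gpnmb and other genes was not tested. Of 18 optic nerve astrocyte and oligodendrocyte genes 11 passed the filter, and Cnp, a myelin enzyme also made elsewhere, was upregulated at 4.93, 5.09 and 4.47 in SHAM and 6.99, 6.64 and 6.92 FPKM in MOG (log2FoldChange 0.50 ± 0.10, edgeR adjusted p = 0.00776, up to 0.0551), a call that was lost without MOG replicate 3, while Mbp stood at 3.73, 3.91 and 4.301 in SHAM and 4.02, 5.42 and 3.896 FPKM in MOG (0.16 ± 0.12). Of 22 endothelial and mural genes Vcam1, which captures leukocytes, was upregulated (log2FoldChange 0.44 ± 0.11, edgeR adjusted p = 0.0414, up to 0.234) and lost its call without any single library except SHAM replicate 2, and Cldn5 (0.08 ± 0.15) and Pecam1 (0.11 ± 0.15) were not DEGs. The lens genes had 5 of 17 past the filter and the erythrocyte genes 3 of 7, with no DEG.

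The 46 lists held 1102 tested genes and 90 of the DEGs, which left 155 DEGs on no list. The largest changes among these, at a mean of at least 1 CPM in the higher group, included genes of adhesion and the cytoskeleton. Lad1, ladinin, stood at 0.406, 0.7202 and 0.662 in SHAM and 2.26, 2.57 and 2.696 FPKM in MOG (log2FoldChange 2.06 ± 0.20, edgeR adjusted p = 2.89e-06). Cdh3, P-cadherin, was higher (log2FoldChange 1.64 ± 0.39, edgeR adjusted p = 0.0313, up to 0.167). Fbn2, fibrillin 2, stood at 0.177, 0.189 and 0.231 in SHAM and 0.399, 0.574 and 0.477 FPKM in MOG (log2FoldChange 1.27 ± 0.23, edgeR adjusted p = 0.00334). Flnc, filamin C (log2FoldChange 1.02 ± 0.25, edgeR adjusted p = 0.0365, up to 0.127), was higher as well, as was the heart troponin Tnnt2 (2.11 ± 0.20). Pde10a, a phosphodiesterase of cyclic nucleotides, stood at 3.51, 1.86 and 2.92 in SHAM and 5.58, 6.21 and 5.54 FPKM in MOG (log2FoldChange 1.06 ± 0.17, edgeR adjusted p = 0.0107, up to 0.0989). Jak3, a kinase of immune cytokine receptors whose exons overlap Insl3, was higher too (log2FoldChange 1.02 ± 0.24, edgeR adjusted p = 0.0285, up to 0.296), and so was Zfp185 (1.18 ± 0.26, edgeR adjusted p up to 0.117). Of transcripts without a known protein, BC055402 stood at 5.01, 4.93 and 5.22 in SHAM and 12.6, 13.3 and 11.8 FPKM in MOG (log2FoldChange 1.31 ± 0.17, edgeR adjusted p = 0.0015), and Gm48237 (1.30 ± 0.29, edgeR adjusted p up to 0.124), 9330188P03Rik (1.12 ± 0.26, edgeR adjusted p up to 0.144) and the pseudogene Gm37904 (1.33 ± 0.27, edgeR adjusted p up to 0.0788) were upregulated.

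Down-regulated genes on no list were led by Ppp1r1c (-2.004 ± 0.39, edgeR adjusted p up to 0.0833), the pseudogene Gm8325 (-1.58 ± 0.32, edgeR adjusted p up to 0.126), Sh3bgr (-1.30 ± 0.24, edgeR adjusted p up to 0.0674) and the transcript Gm9866 (-1.15 ± 0.23, edgeR adjusted p up to 0.104). Coro6, a coronin of the actin cytoskeleton, stood at 1.87, 2.92 and 2.39 in SHAM and 1.17, 1.13 and 1.21 FPKM in MOG (log2FoldChange -1.04 ± 0.21, edgeR adjusted p = 0.00906, up to 0.0702). Fxyd7, a brain regulator of the sodium pump, stood at 14.5, 13.5 and 11.02 in SHAM and 8.29, 6.05 and 5.497 FPKM in MOG (log2FoldChange -0.97 ± 0.19, edgeR adjusted p = 0.00645, up to 0.0835). Ctxn3, cortexin 3, stood at 6.61, 6.76 and 4.59 in SHAM and 3.06, 3.29 and 2.78 FPKM in MOG (log2FoldChange -0.97 ± 0.19, edgeR adjusted p = 0.00776, up to 0.0776). Cyp2s1, a cytochrome P450, stood at 0.9595, 1.06 and 0.946 in SHAM and 0.474, 0.603 and 0.494 FPKM in MOG (log2FoldChange -0.92 ± 0.19, edgeR adjusted p = 0.00935, up to 0.0783). Aifm3 stood at 1.29, 1.27 and 1.21 in SHAM and 0.631, 0.829 and 0.622 FPKM in MOG (log2FoldChange -0.86 ± 0.17, edgeR adjusted p = 0.00784, up to 0.0826). Hipk4 (-0.93 ± 0.20, edgeR adjusted p up to 0.109), Kank4 (-0.87 ± 0.22, edgeR adjusted p up to 0.311) and Clvs2 (-0.86 ± 0.21, edgeR adjusted p up to 0.275) were lower too. All of these had every MOG library below every SHAM library, as did every down-regulated DEG.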

How the data were processed

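The authors enriched poly-A RNA, sequenced paired ends, aligned with HISAT2 (version 2.0.5 on mm10, per the submitters' processing notes), counted fragments per gene with FeatureCounts and deposited whole-number counts and FPKM values. FPKM of a gene was its count divided by a fixed gene length and by 1 constant per library. Neither strand setting nor annotation release is stated. The labels do not say which libraries come from separate animals, so p-values measure the spread between these libraries.

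Counts of all 12 libraries were tested with edgeR 4.0.16 in R 4.3.3 (expression filter by group, TMM scaling, 1 mean per group, robust quasi-likelihood test, 8 residual degrees of freedom, adjusted p under 0.05). Gene names and exon lengths were taken from the GENCODE vM21 annotation (GRCm38), where 54409 of 54532 identifiers were found. Promoters came from RefSeq. Per-library list medians used log2 CPM with a prior count of 2. Alternatives used DESeq2 1.42.0 and limma 3.58.1 (pseudocounts of 1 and 0.1 on FPKM). The scripts were tested on simulated data. Figures were drawn with matplotlib 3.10.9 in Python 3.11.15.

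The 46 lists, the motifs and the comparison were chosen with earlier results of these data known, so no list was tested as a set. The rule for named genes took called members of lists, members from among the first 4 tested of each list (not every one is printed), and up to 12 called genes in each direction on no list, by size of change. Other members and other examples, as well as the printed promoters, were chosen after their values had been seen. Replicate pairs of 1 group differed by more than sampling noise, which cannot show whether they come from separate animals, since separate preparations of the same RNA can differ too. The paper speaks of biological replicates, and each library was treated as 1 replicate. Some genes are not reported here.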

Additional observations from a re-analysis of the deposited data

How the results depend on the processing

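The number of DEGs was 245 (104 upregulated, 141 down-regulated) and lay between 196 and 316 with DESeq2, limma-voom, edgeR on the 6 libraries, other scaling, a minimum of 1 CPM and the length and GC offset, and it was 176 without genes whose exons overlap another. The length and GC offset gave 307 DEGs, of which 217 were shared with the 245. With every gene with a count it was 539 (252 and 287). In limma on log2(FPKM + 1) it was 117 (57 and 60), with a pseudocount of 0.1 106 (53 and 53), and over every gene with a count 57 (34 and 23). Leaving out 1 library gave 91 to 427 DEGs (46 to 184 upregulated and 45 to 243 down-regulated), lowest without MOG replicate 3 and highest without SHAM replicate 3. Replicate numbers are shared between the groups. Correlations of same-numbered SHAM and MOG libraries were 0.262, -0.0722 and 0.0943 for replicates 1, 2 and 3. The best MOG library of another number gave -0.1408, 0.0456 and 0.2134. The same number was thus the closer match for replicate 1 and not for replicates 2 and 3. With 3 libraries a group these values cannot decide whether the libraries are paired. With the number as a replicate block there were 404 DEGs (167 and 237), 244 of them shared with the 245, and with the length and GC offset as well 483 (225 and 258). The block also called 1 cone gene (Arr3), 1 lens gene, 1 ribosomal protein gene, 1 heat shock chaperone and 2 pigment epithelium genes, from lists with no DEG in the unblocked model. Scaling moved the median log2FoldChange of all genes by at most 0.03. None of the 114 named DEGs followed through the alternatives changed sign. Of 114 named DEGs 49 kept their call in all 13 alternatives, 62 lost it without MOG replicate 3, 50 without MOG replicate 2 and 48 without SHAM replicate 1. The cause was not tested. At 3 libraries a group and these depths, a change of a scarce gene that missed the test was not shown to be absent.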
